A study of Mus musculus with 24 samples.

Results

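The 8 haematopoietic growth factor receptor genes Flt3, Csf1r, Csf3r, Epor, Csf2ra, Il3ra, Csf2rb and Csf2rb2 were followed across haematopoietic stem cells (HSCs) and the myeloid-biased multipotent progenitors called MPP3. Their rows were picked by symbol and not by a limit on their values, with earlier results of these data known. They are 8 of the 55376 gene symbols counted in each library. All 8 passed the filter on low counts in each of the 9 comparisons made here. The cells came from the bone marrow of untreated male mice. TTPΔARE mice are homozygous for a deletion of an AU-rich element in the 3′ UTR of Zfp36, the gene of the mRNA-decay protein tristetraprolin (TTP), at the endogenous locus and thus in every cell of the animal, and their wild-type (WT) littermates served as controls. Young (Y) mice were 4 to 5 months old and middle-aged (M) mice 1 year old. There were 4 Y-WT and 4 Y-TTPΔARE HSC libraries, 5 M-WT and 3 M-TTPΔARE HSC libraries, and 4 Y-WT and 4 Y-TTPΔARE MPP3 libraries, 24 in all.

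HSCs were sorted as Lineage- Sca1+ cKit+ (LSK) cells without CD34 and Flk2 and with CD150, and MPP3s as LSK cells without Flk2 and CD150 and with CD48. Flk2 is the protein that Flt3 encodes, so Flt3 mRNA was measured in cells gated as lacking its surface protein. The other 7 receptors were not part of either gate. Young HSCs, middle-aged HSCs and MPP3s form separate runs of library numbers in the labels, so an age or cell type difference cannot be told apart from a difference between those sets of libraries.

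Growth factor receptors carry signals for survival, division and lineage choice into blood progenitors. Flt3 and Csf1r are receptor tyrosine kinases, which bind Flt3 ligand on lymphoid-primed, dendritic and early progenitor cells, and M-CSF and IL-34 on monocytes and macrophages. Epor, for erythropoietin, and Csf3r, for G-CSF, are single-chain cytokine receptors that pair with themselves and signal through JAK2 and the STAT proteins, Epor in the red cell lineage and Csf3r in the neutrophil lineage. The receptors for GM-CSF and IL-3 join a ligand-specific alpha chain, Csf2ra or Il3ra, to a beta chain. Csf2rb is the common beta chain shared by GM-CSF, IL-3 and IL-5, and Csf2rb2 is a further beta chain of mice that serves IL-3 alone.

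The library totals lay between 24261371 and 39934554 counts. Zfp36 was higher in every TTPΔARE library than in every WT library of the same set, at 83.3 to 113 against 33.1 to 72.6 CPM (counts scaled by library size) in young HSCs, 91.5 to 110.3 against 43.6 to 64.2 in middle-aged HSCs and 72.7 to 118 against 21.6 to 34.6 in MPP3s. By edgeR's quasi-likelihood test this was a log2 difference of 0.96 in young HSCs (adjusted p = 0.238), 0.97 in middle-aged HSCs (adjusted p = 0.00200) and 1.80 in MPP3s (adjusted p = 0.000646). The gate antigens followed the sorts, with log2 differences between WT MPP3s and WT HSCs of -4.69 for Slamf1 (CD150) and 4.09 for Cd48. Y-WT HSC replicates 1 and 4 stood apart in 8 endothelial marker genes, whose summed level was 897 and 908 CPM there against 489 and 471 in replicates 2 and 3. Olfactory and vomeronasal receptor genes, which HSCs are not known to use, summed to 806, 1015 and 598 CPM in Y-WT HSC replicates 2, 3 and 4 and to 64 in replicate 1.

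A level is in CPM, that is counts divided by the TMM-scaled total of the library and put on a common scale over the 24 libraries, given in the order of the replicate numbers, with its mean ± SD over the libraries of a group. A difference is a log2 fold change with its standard error (SE) from edgeR's quasi-likelihood test, and p was adjusted by Benjamini-Hochberg over all genes tested. To be called, a gene had to have an adjusted p below 0.05, to differ by more than 1.2-fold and to exceed 1.5 in mean log2 CPM. The labels do not say that replicates came from separate animals, so p measures the spread between these libraries.

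Per kilobase of exon, which allows genes to be compared, Flt3 stood highest of the 8 in MPP3s, at 83.2 ± 10.1 CPM per kb in WT and 107 ± 11.0 in TTPΔARE (SD, n = 4 each). Csf3r followed in WT MPP3s at 66.5 ± 17.8 CPM per kb and had the highest mean of the 8 in all 4 HSC groups, between 20.02 ± 1.27 in Y-TTPΔARE (n = 4) and 45.4 ± 7.18 in M-WT (n = 5). Csf2ra was next in HSCs, and in Y-TTPΔARE HSCs, at 19.0 ± 1.21 CPM per kb (n = 4), it was within the spread of Csf3r. The IL-3 alpha chain Il3ra lay between 1.92 and 3.32 CPM per kb, below the GM-CSF alpha chain Csf2ra in every group. Epor ran opposite to Flt3, with 4.93 to 8.89 CPM per kb in HSCs and 1.19 and 1.30 in MPP3s.

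**Figure D1:**
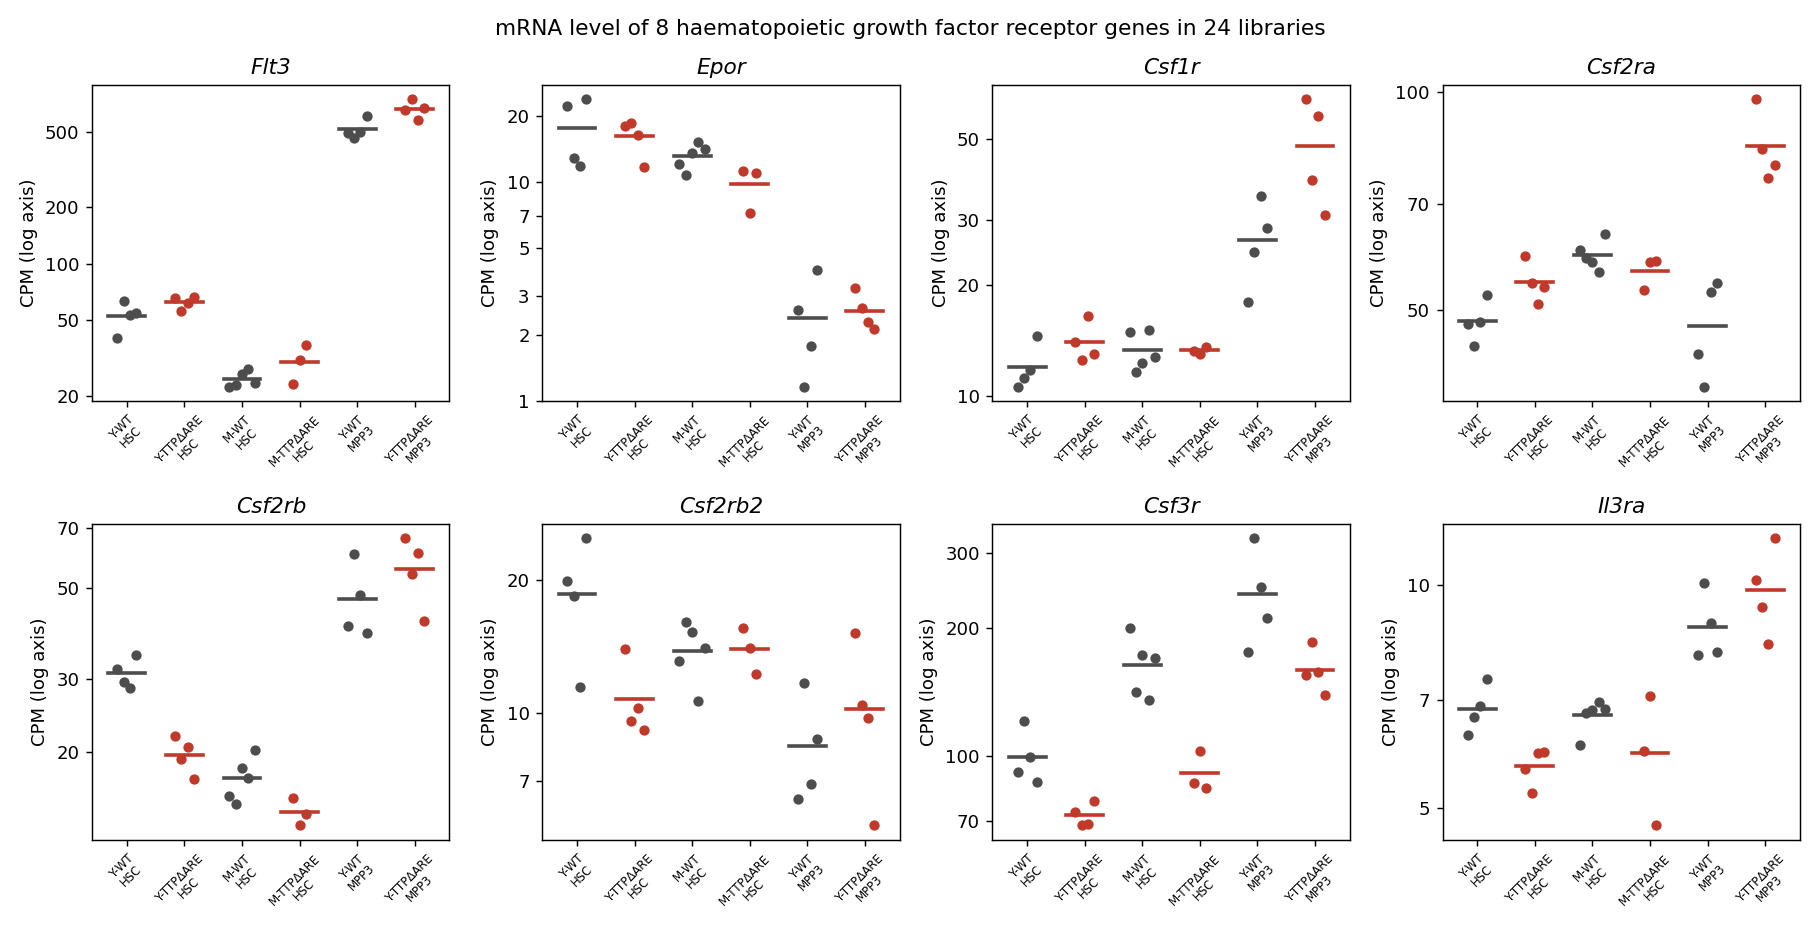
Level of each receptor gene in CPM (log axis) in every library, one panel per gene, with the 6 groups along the x axis and a bar at each group mean. The MPP3 libraries lie above all HSC libraries for Flt3 and Csf1r and below all of them for Epor.

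MPP3s differed from HSCs in most of these receptors. In WT mice 4 of the 8 genes were called higher in MPP3s (Flt3, Csf1r, Csf3r and Csf2rb) and 2 lower (Epor and Csf2rb2), against 14.5% of all tested genes called higher and 7.69% called lower. In TTPΔARE mice 6 were higher (the same 4, Csf2ra and Il3ra) and Epor was lower, against 9.07% and 7.22% of all genes. The levels in the 2 cell types did not overlap for 6 of the 8 genes in WT and 7 in TTPΔARE, against 29.3% and 24.0% of all genes. The median of the 8 log2 differences was 0.51 in WT, where that of all genes was -0.16, and 0.97 in TTPΔARE, where that of all genes was -0.05. In bulk samples like these, fewer cells of a type and less RNA per cell cannot be told apart.

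Flt3 (chr5:147330741-147400489, minus strand, GRCm38) showed the largest difference of the 8. Its level in Y-WT HSCs was 40.5, 63.3, 53.1 and 54.4 CPM, and in Y-WT MPP3s 491, 464, 495 and 604. In Y-TTPΔARE HSCs it was 65.7, 55.8, 61.9 and 66.3 CPM, and in Y-TTPΔARE MPP3s 654, 741, 576 and 665. Thus the lowest MPP3 library held several times the Flt3 of the highest HSC library, although both populations were sorted as negative for the protein. The log2 difference between the cell types was 3.31 (SE 0.138, edgeR adjusted p = 5.28e-06), or 9.95-fold, in WT and 3.40 (SE 0.112, adjusted p = 6.94e-07), or 10.6-fold, in TTPΔARE.

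The M-CSF receptor Csf1r (chr18:61100598-61132149, plus strand, GRCm38) was low and even in HSCs. Its level was 10.6, 11.2, 11.8 and 14.6 CPM in Y-WT HSCs and 14.0, 12.5, 16.5 and 13.0 in Y-TTPΔARE HSCs. In MPP3s it was 18.0, 24.6, 34.8 and 28.5 CPM in Y-WT and 63.9, 38.6, 57.4 and 31.0 in Y-TTPΔARE. Every MPP3 library was above every HSC library, and the MPP3 libraries differed among themselves far more than the HSC libraries did. On the log2 scale MPP3s differed by 1.17 (SE 0.198, edgeR adjusted p = 0.00249) in WT and 1.78 (SE 0.233, adjusted p = 0.000524) in TTPΔARE.

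Of the single-chain receptors, Csf3r (chr4:126024550-126044440, plus strand, GRCm38) was higher in MPP3s. Its level was 91.3, 120.4, 99.3 and 86.5 CPM in Y-WT HSCs and 73.6, 68.4, 68.8 and 78.2 in Y-TTPΔARE HSCs. In MPP3s it reached 175, 325, 249.6 and 210.4 CPM in Y-WT and 155, 185, 157 and 139 in Y-TTPΔARE. The 2 cell types were separate in both genotypes, with the widest spread in Y-WT MPP3s. The log2 difference was 1.30 (SE 0.177, edgeR adjusted p = 0.000770) in WT and 1.14 (SE 0.117, adjusted p = 0.000119) in TTPΔARE.

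Epor (chr9:21958897-21963506, minus strand, GRCm38) was the one member called lower in MPP3s in both genotypes. The 250 bases before its start are shown because GATA factors are known regulators of Epor and the window holds a GATA-type motif. The sequence is from RefSeq (GRCm38.p6, chr9:21963577-21963826, minus strand), with the reverse complement of AGATAA in capitals, 54 bases before the start.
Epor promoter: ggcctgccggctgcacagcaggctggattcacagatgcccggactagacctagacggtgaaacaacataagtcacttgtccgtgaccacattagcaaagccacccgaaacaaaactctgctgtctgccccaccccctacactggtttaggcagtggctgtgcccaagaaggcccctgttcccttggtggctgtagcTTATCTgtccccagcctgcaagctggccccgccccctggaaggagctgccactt
Searched on both strands, AGATAA was present in 9.99% of 32851 promoter windows of the same length and in none of the other 5 members with a window (Flt3, Csf2ra, Csf2rb2, Csf3r and Il3ra). The shorter GATA was present in 53.6% of the windows, and in those of Csf2rb2 and Il3ra as well as Epor. A GATA-type motif was thus not particular to Epor.

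The level of Epor was 22.2, 12.8, 11.8 and 23.8 CPM in Y-WT HSCs and 18.0, 18.6, 16.4 and 11.6 in Y-TTPΔARE HSCs. In MPP3s it was 2.61, 1.16, 1.78 and 3.94 CPM in Y-WT and 3.26, 2.64, 2.28 and 2.13 in Y-TTPΔARE. All HSC libraries were thus well above all MPP3 libraries. Its log2 difference was -2.88 (SE 0.397, edgeR adjusted p = 0.000840) in WT, or 7.36-fold, and -2.64 (SE 0.204, adjusted p = 2.23e-05) in TTPΔARE, or 6.25-fold. The 2 Y-WT HSC libraries with the highest Epor, replicates 1 and 4, were those with the high endothelial markers, and 6 of the 8 endothelial markers were called lower in WT MPP3s (on the log2 scale Kdr at -7.66, Cldn5 at -6.16, Plvap at -5.97 and Cdh5 at -5.69). With both of these libraries left out, an alternative chosen after the data were seen, the log2 difference of Epor in WT was -2.32 (edgeR adjusted p = 0.0112, over all alternatives 5.72e-12 to 0.0112). The summed endothelial level was 455 to 533 CPM in Y-TTPΔARE HSCs and 318 to 395 in all MPP3s.

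The GM-CSF alpha chain Csf2ra (chr19:61223957-61228429, minus strand, GRCm38) rose with cell type in TTPΔARE mice. Its level was 47.7, 44.5, 48.1 and 52.3 CPM in Y-WT HSCs and 43.5, 39.1, 53.0 and 54.4 in Y-WT MPP3s. In TTPΔARE it was 59.4, 54.5, 51.0 and 53.7 CPM in HSCs and 97.6, 83.4, 76.0 and 79.3 in MPP3s. The WT cell types overlapped and the TTPΔARE cell types did not. The log2 difference was 0.01 (SE 0.125, 95% interval -0.27 to 0.29, edgeR adjusted p = 0.955) in WT and 0.62 (SE 0.101, adjusted p = 0.00179) in TTPΔARE.

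The IL-3 alpha chain Il3ra (chr14:14346275-14356011, plus strand, GRCm38) was low in both cell types and a little higher in MPP3s. Its level was 6.27, 6.63, 6.86 and 7.46 CPM in Y-WT HSCs and 8.04, 10.04, 8.89 and 8.11 in Y-WT MPP3s. In TTPΔARE it was 5.64, 5.24, 5.93 and 5.95 CPM in HSCs and 10.2, 9.33, 8.33 and 11.6 in MPP3s. The cell types did not overlap in either genotype. The log2 difference in WT was 0.40 (SE 0.131) and was not called (edgeR adjusted p = 0.0536), and it was 0.79 (SE 0.155) and called in TTPΔARE (adjusted p = 0.00525).

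The beta chains Csf2rb (chr15:78325752-78353847, plus strand, GRCm38) and Csf2rb2 (chr15:78282507-78305721, minus strand) lie side by side in opposite orientation. Their coding sequences were identical in 95.2% of 2628 aligned bases, and 6.96% of the 100-base windows of Csf2rb transcripts also occurred in Csf2rb2 transcripts, so reads of one gene could be counted to the other or lost, and the values of both are uncertain to that degree. Coding bases 38 to 137 are shown to let the likeness be seen, with the 5 bases that differ in capitals.
Csf2rb: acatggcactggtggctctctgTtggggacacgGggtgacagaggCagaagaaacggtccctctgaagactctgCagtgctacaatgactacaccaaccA
Csf2rb2: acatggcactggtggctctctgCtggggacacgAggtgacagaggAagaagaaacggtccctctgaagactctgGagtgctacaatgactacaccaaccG

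In spite of this likeness the 2 beta chains moved in opposite directions between WT cell types. Csf2rb stood at 31.7, 29.6, 28.5 and 34.4 CPM in Y-WT HSCs and at 40.5, 60.4, 48.04 and 38.9 in Y-WT MPP3s. Csf2rb2 stood at 19.9, 18.4, 11.5 and 24.9 CPM in Y-WT HSCs and at 6.39, 11.7, 6.90 and 8.73 in Y-WT MPP3s. All MPP3 libraries were higher for Csf2rb, while for Csf2rb2 the highest MPP3 library lay just over the lowest HSC library. By edgeR the log2 difference was 0.62 (SE 0.144, edgeR adjusted p = 0.0121) for Csf2rb and -1.13 (SE 0.251, adjusted p = 0.00970) for Csf2rb2. With the counts of both genes summed it was 0.18 (adjusted p = 0.434). Without Y-WT HSC replicates 1 and 4, which held the highest Csf2rb2, the difference of Csf2rb2 was -0.78 and was no longer called (adjusted p = 0.0749, over all alternatives 0.000131 to 0.0749).

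In TTPΔARE mice only Csf2rb of the 2 was called between the cell types. Csf2rb was 21.9, 19.2, 20.5 and 17.2 CPM in Y-TTPΔARE HSCs and 66.2, 54.2, 60.8 and 41.6 in Y-TTPΔARE MPP3s. Csf2rb2 was 13.9, 9.61, 10.3 and 9.17 CPM in Y-TTPΔARE HSCs and 15.2, 10.4, 9.74 and 5.56 in Y-TTPΔARE MPP3s. The ranges of Csf2rb were far apart, whereas the HSC range of Csf2rb2 lay inside the MPP3 range. The log2 difference was 1.51 (SE 0.159, edgeR adjusted p = 0.000139) for Csf2rb and -0.07 (SE 0.267, 95% interval -0.66 to 0.53, adjusted p = 0.922) for Csf2rb2.

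The ratio of Csf2rb to Csf2rb2 counts within a library sums up this pattern. Its median was 1.60 in Y-WT HSCs (1.38 to 2.49) and 1.94 in Y-TTPΔARE HSCs (1.57 to 2.00), and 5.76 (4.45 to 6.96) and 5.73 (4.35 to 7.49) in the matching MPP3s. In middle-aged HSCs it was 1.19 in M-WT (0.934 to 1.63) and 0.992 in M-TTPΔARE (0.944 to 1.15). As the genes differ in exon length, count ratios do not show which chain was higher. Per kilobase of exon the ratio was 0.608 to 1.06 in M-WT and 0.615 to 0.750 in M-TTPΔARE HSCs. It was 0.901 to 1.62 in Y-WT and 1.02 to 1.30 in Y-TTPΔARE HSCs, and 2.90 to 4.53 and 2.83 to 4.88 in the matching MPP3s. No MPP3 library reached down to an HSC library, whatever the genotype.

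**Figure D2:**
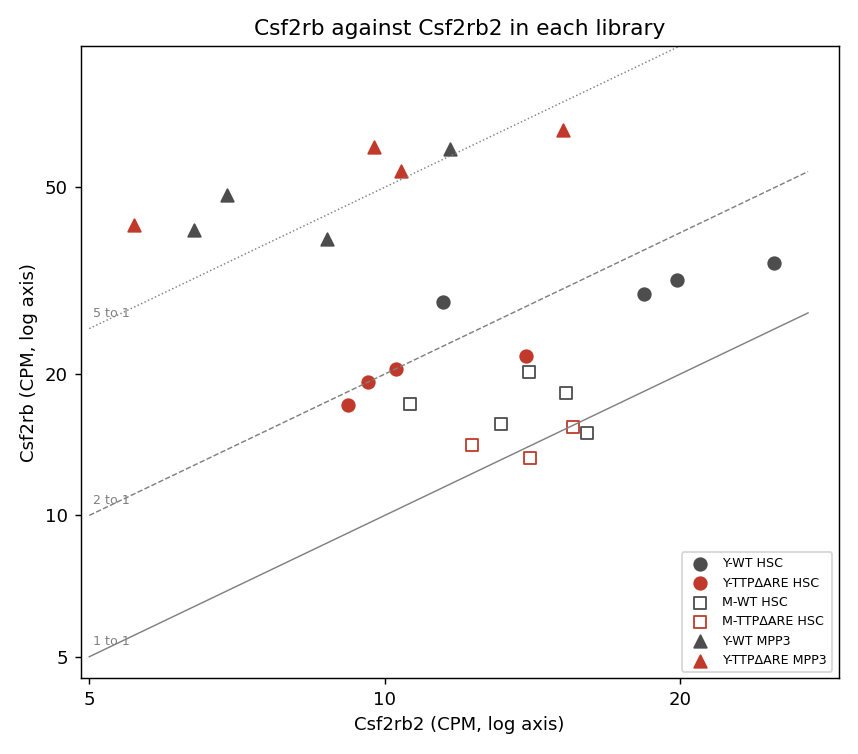
Csf2rb level against Csf2rb2 level in CPM (log axes), one point per library, with shape and colour by group and lines at ratios of 1, 2 and 5 to 1. The MPP3 libraries, with count ratios of 4.35 to 7.49, lie apart from the HSC libraries, with ratios of 0.934 to 2.49.

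Age was compared within HSCs of each genotype. Flt3 and Csf2rb were lower and Csf3r was higher in middle-aged HSCs, in WT as in TTPΔARE. In WT 1 of the 8 genes was called higher and 2 lower, against 8.38% and 3.69% of all genes tested, and in TTPΔARE again 1 higher and 2 lower, against 4.98% and 3.24%. The groups did not overlap for 4 of the 8 genes in each genotype, against 17.9% of all genes in WT and 19.1% in TTPΔARE. The median log2 difference of the 8 was -0.27 in WT and -0.00 in TTPΔARE, with -0.04 and -0.01 for all genes.

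Markers of several cell types also moved with age. Of all genes 8.38% were called higher and 3.69% lower in WT, and 4.98% and 3.24% in TTPΔARE. Of 10 HSC markers 7 were higher in each genotype, and their summed level was 1479.8 to 1881 CPM in Y-WT against 2333 to 2599 in M-WT and 1700.4 to 1847 in Y-TTPΔARE against 2448 to 2682 in M-TTPΔARE. Of 9 lymphoid-primed progenitor markers 3 were lower in each genotype. Of 10 granulocyte-monocyte progenitor markers 2 were higher and 1 lower in each genotype. They summed to 386 to 531 CPM in Y-WT, 577 to 690 in M-WT, 432 to 521 in Y-TTPΔARE and 605 to 674 in M-TTPΔARE. Monocyte and macrophage markers were lower in 3 of 12 in WT and 7 in TTPΔARE, where they summed to 545 to 583 CPM in young and 418 to 432 in middle-aged HSCs. Of 8 T and NK cell markers 4 were lower and 1 higher in WT, and 7 lower and 1 higher in TTPΔARE, with sums of 80.3 to 100.04 against 53.4 to 61.6 CPM in WT and 112 to 232 against 51.0 to 69.1 in TTPΔARE. Of 9 megakaryocyte and platelet markers 2 were higher and 2 lower in WT, and 1 was higher in TTPΔARE. Of 8 endothelial markers 1 was higher in each genotype, with 4 lower in WT and 2 in TTPΔARE. Of 10 erythroid markers 2 were higher in WT and 3 lower in TTPΔARE. Of 10 neutrophil markers 1 was lower in WT and 2 in TTPΔARE. Their sums were 13.4 to 183 CPM in Y-WT and 7.67 to 16.3 in M-WT. In TTPΔARE they were 15.9 to 26.0 CPM in young and 5.66 to 9.45 in middle-aged HSCs. The part of these cells in the age differences of the receptors was not tested.

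Flt3 stood at 22.3, 22.6, 26.1, 27.6 and 23.2 CPM in M-WT and at 23.0, 30.8 and 37.0 in M-TTPΔARE, in each case below every young HSC library of its genotype. The log2 difference from young HSCs was -1.16 (SE 0.128, edgeR adjusted p = 0.000351) in WT and -1.04 (SE 0.135, adjusted p = 0.00106) in TTPΔARE. Of the 8 gate antigens, Flt3 among them, 2 were higher and 3 lower with age in each genotype. Cd48, a marker that the HSC gate did not use, and Cd34, which the gate excluded, had log2 differences of -2.32 and -0.73 in WT and of -2.76 and -1.198 in TTPΔARE. Slamf1 (CD150) and Kit, for which the gate was positive, rose by 0.65 and 0.34 in WT and by 0.66 and 0.33 in TTPΔARE. The part of the gate antigens in the fall of Flt3 was not tested.

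Csf3r reached 199, 141, 173, 135 and 169 CPM in M-WT and 86.0, 103 and 83.7 in M-TTPΔARE. All 5 M-WT libraries were above all 4 Y-WT libraries, and all 3 M-TTPΔARE libraries above all 4 Y-TTPΔARE libraries. The log2 difference was 0.68 (SE 0.128, edgeR adjusted p = 0.00548) in WT. In TTPΔARE it was 0.34 (SE 0.0899, adjusted p = 0.0397), and the adjusted p ranged from 0.00842 to 0.339 over the alternatives, most of which lost the call.

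Csf2rb was 15.6, 15.0, 18.2, 17.3 and 20.2 CPM in M-WT and 15.4, 13.3 and 14.1 in M-TTPΔARE. Both groups lay wholly below the young HSCs of the same genotype. The log2 difference was -0.89 (SE 0.100, edgeR adjusted p = 0.000400) in WT. In TTPΔARE it was -0.45 (SE 0.120, adjusted p = 0.0417), with a range of 0.00495 to 0.779 over the alternatives, most of which lost the call. The other beta chain, Csf2rb2, was 13.1, 16.1, 15.3, 10.6 and 14.0 CPM in M-WT and 15.6, 14.0 and 12.3 in M-TTPΔARE, and its differences of -0.47 (adjusted p = 0.0967) and 0.39 (adjusted p = 0.187) were not called.

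Of the other members, Epor was 12.1, 10.7, 13.6, 15.3 and 14.1 CPM in M-WT and 11.2, 7.21 and 11.0 in M-TTPΔARE. The M-TTPΔARE libraries lay below all Y-TTPΔARE libraries, with a log2 difference of -0.71 (SE 0.199) that just missed the limit (edgeR adjusted p = 0.0513, over the alternatives 0.00105 to 0.295), and it was called by DESeq2, by the likelihood ratio test (0.0425), with RLE size factors (0.0450), without a filter on low counts and without Y-TTPΔARE HSC replicate 4 (0.0204), among others. The WT difference of -0.46 (adjusted p = 0.126) turned to 0.05 without Y-WT HSC replicates 1 and 4. Csf2ra was 56.4 to 63.5 CPM in the 5 M-WT libraries, above every Y-WT HSC library, and its difference of 0.26 passed the p limit (adjusted p = 0.0240) but not the fold limit. Csf1r at 11.7 to 15.1 CPM in M-WT and 13.1 to 13.6 in M-TTPΔARE, and Il3ra at 6.08 to 6.95 and 4.73 to 7.08, overlapped their young counterparts.

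**Figure D3:**
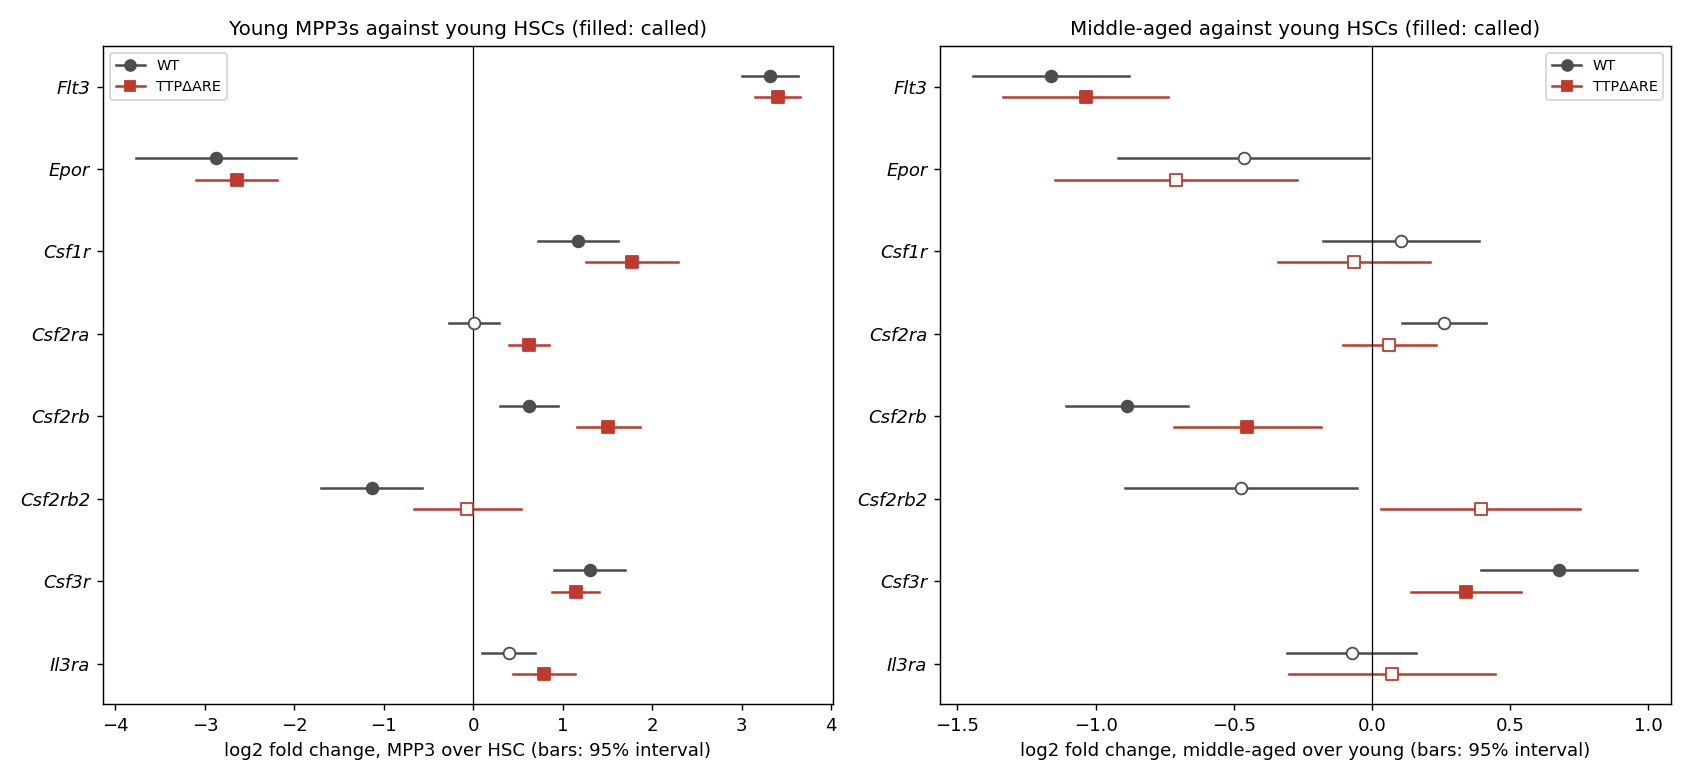
Log2 difference of each receptor gene with its 95% interval (filled where called), for MPP3s against HSCs of young mice and for middle-aged against young HSCs, in WT and in TTPΔARE. Flt3 is 3.31 and 3.40 higher with cell type and 1.16 and 1.04 lower with age, and Epor is the gene furthest below 0 with cell type.

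Between TTPΔARE and WT few of these receptors were called, Csf3r in middle-aged HSCs and Csf2ra in MPP3s. In young HSCs none of the 8 was called, against 0.0246% of all genes called in either direction, while 4 had an unadjusted p under 0.05, as did 7.38% of all genes. DESeq2 called 3 (Csf2rb, Csf2rb2 and Csf3r), against 1.63% of all genes, and edgeR's likelihood ratio test 1 (Csf2rb), against 0.599%. In middle-aged HSCs 1 of the 8, Csf3r, was called, and it was lower, against 0.710% of genes called lower and 1.41% in either direction. In young MPP3s 1 of the 8, Csf2ra, was called, and it was higher, against 1.58% called higher and 1.71% in either direction. The median log2 difference of the 8 was -0.21 in young HSCs, -0.09 in middle-aged HSCs and 0.30 in MPP3s, where all genes gave -0.07, 0.01 and 0.04.

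In young HSCs the TTPΔARE libraries lay wholly below the WT libraries for 3 members, Csf2rb, Csf3r and Il3ra, against 2.48% of all genes. The beta chains stood out in size. Mean Csf2rb was 31.1 ± 2.61 CPM (SD, n = 4) without the deletion and 19.7 ± 1.99 (SD, n = 4) with it, which is -0.67 on the log2 scale (SE 0.0971, 95% interval -0.89 to -0.45, edgeR adjusted p = 0.111). Csf2rb2 was 18.6 ± 5.54 and 10.7 ± 2.17 CPM, a difference of -0.81 (SE 0.215, adjusted p = 0.316), with Y-WT replicate 3, at 11.5 CPM, inside the Y-TTPΔARE range. Csf3r differed by -0.47 (SE 0.113, adjusted p = 0.260) and Il3ra by -0.27 (adjusted p = 0.705). None of these 4 differences passed the test, whose adjusted p for Csf2rb ranged from 6.61e-06 to 0.507 over the alternatives. The paper, which used edgeR with the same limits, lists Csf2rb as significantly lower in young TTPΔARE HSCs. Of 10 erythroid markers 1 was called, and the 9 that were counted summed to 29 to 41 CPM in Y-WT and 119 to 401 in Y-TTPΔARE HSCs. T and NK cell markers, 0 of 8 called, summed to 80.3 to 100.04 and 112 to 232 CPM. The part of either kind of cell in these values was not tested. Epor differed by -0.14 (adjusted p = 0.830), and by 0.45 (adjusted p = 0.235) without Y-WT replicates 1 and 4.

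Mean Csf3r, the G-CSF receptor, was 164 ± 25.9 CPM over the 5 M-WT libraries (SD) and 90.7 ± 10.3 over the 3 M-TTPΔARE libraries. No library of the 2 groups overlapped, as was so, lower in TTPΔARE, for 6.90% of all genes. This gave a log2 difference of -0.82 (SE 0.121, 95% interval -1.08 to -0.55, edgeR adjusted p = 0.00838), or 1.76-fold. Over the alternatives its adjusted p ranged from 4.76e-11 to 0.0774, and the alternatives that lost the call included leaving out M-TTPΔARE replicate 1 (adjusted p = 0.0550) or replicate 3 (0.0638) and taking the olfactory and vomeronasal receptor share as a covariate (0.0774). Flt3 at 0.34 (adjusted p = 0.242) and Epor at -0.40 (adjusted p = 0.278) were the next largest differences, while Csf1r differed by 0.03 (95% interval -0.23 to 0.28), Csf2ra by -0.04 (-0.18 to 0.09) and Csf2rb2 by 0.05 (-0.26 to 0.36). Megakaryocyte and platelet markers, 2 of 9 called lower, summed to 1517 to 1715 CPM in M-WT and 1427 to 1474 in M-TTPΔARE. Monocyte and macrophage markers, 0 of 12 called, summed to 440 to 494 and 418 to 432 CPM. Neutrophil markers, 0 of 10 called and 0 over the expression limit, summed to 7.67 to 16.3 and 5.66 to 9.45 CPM. Of the endothelial markers and of the 8 gate antigens 1 each was called lower, and of the HSC and dendritic cell markers 1 each higher. Of all genes 1.41% were called in either direction. The part of any of these cells or of the gate antigens in the Csf3r difference was not tested.

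In MPP3s the mean of the GM-CSF alpha chain Csf2ra was 47.5 ± 7.36 CPM over 4 Y-WT libraries and 84.0 ± 9.50 over 4 Y-TTPΔARE libraries (SD). All 4 TTPΔARE libraries were above all 4 WT libraries, as was so for 4.22% of all genes. This was a log2 difference of 0.85 (SE 0.139, 95% interval 0.54 to 1.16, edgeR adjusted p = 0.0111), or 1.80-fold. Its adjusted p ranged from 1.63e-06 to 0.0620 over the alternatives, and the call was lost without WT replicate 1 (0.0620) or TTPΔARE replicate 1 (0.0607). It was kept without TTPΔARE replicate 4 (0.0165). The tyrosine kinases were higher in the mean but not called by edgeR, Csf1r by 0.89 (SE 0.274, adjusted p = 0.193) with TTPΔARE replicate 4, at 31.0 CPM, inside the WT range, and Flt3 by 0.39 (SE 0.113, adjusted p = 0.162). Csf3r lay on the other side at -0.56 (SE 0.180, adjusted p = 0.221), with TTPΔARE libraries of 139 to 185 CPM against 175 to 325. DESeq2 called Flt3 (adjusted p = 0.0133), Csf1r (0.0391) and Csf3r (0.0442) beside Csf2ra, where it called 4.48% of all genes. The edgeR fit of all 24 libraries called Csf1r (adjusted p = 0.00793) and Csf3r (0.0317), where it called 4.27%, and without a filter on low counts edgeR called Csf1r (0.0484), where it called 1.06%.

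Marker genes of other cell types also differed between the genotypes in MPP3s. Of all genes 1.58% were called higher in TTPΔARE MPP3s. Of 9 dendritic cell markers 7 were called higher in TTPΔARE MPP3s, among them Xcr1 (5.52 on the log2 scale), Clec9a (4.74) and H2-Ab1 (3.47), and their summed level was 233 to 308 CPM in WT and 2799, 1714, 1857 and 2903 in TTPΔARE replicates 1 to 4. Monocyte and macrophage markers, of which 4 of 12 were called higher, summed to 534 to 758 and 987 to 1483 CPM, and granulocyte-monocyte progenitor markers, 4 of 10, to 586 to 1537 and 1529 to 3048. Erythroid markers, 2 of 10, summed to 12.4 to 33.1 CPM in WT and 52.7 to 183 in TTPΔARE, and mast cell and basophil markers, 1 of 8, to 37.9 to 76.0 and 95.6 to 292. Elsewhere 1 gene was called higher among each of the lymphoid-primed progenitor and T and NK cell markers, and 1 lower among each of the megakaryocyte and endothelial markers. No counted gene of the 5 lists with sums was at 0 throughout either MPP3 group, and the erythroid sums cover 9 genes. Csf1r, Csf2ra and Flt3 are known to be expressed by dendritic cells, monocytes or their progenitors, and the part of any of these cells in the receptor levels was not tested.

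**Figure D4:**
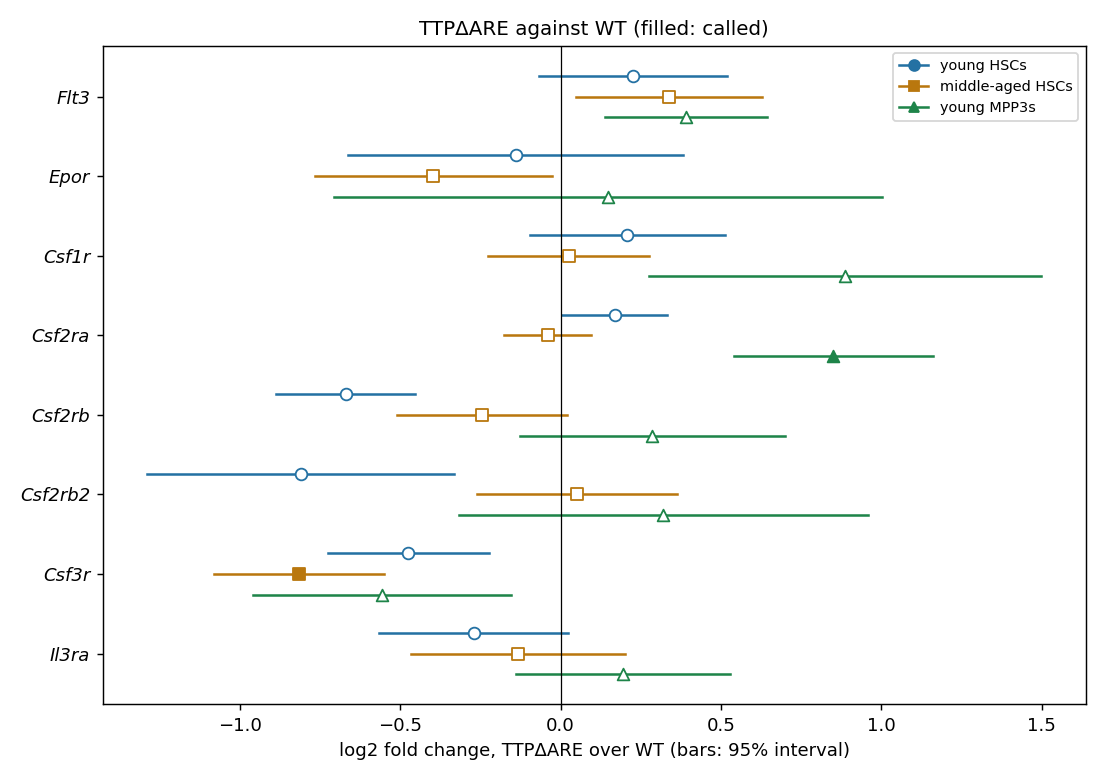
Log2 difference between TTPΔARE and WT of each receptor gene with its 95% interval (filled where called), in young HSCs, middle-aged HSCs and young MPP3s. Csf3r lies below 0 in all 3 sets and is called in middle-aged HSCs alone, and Csf2ra is called in MPP3s alone.

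**Figure D5:**
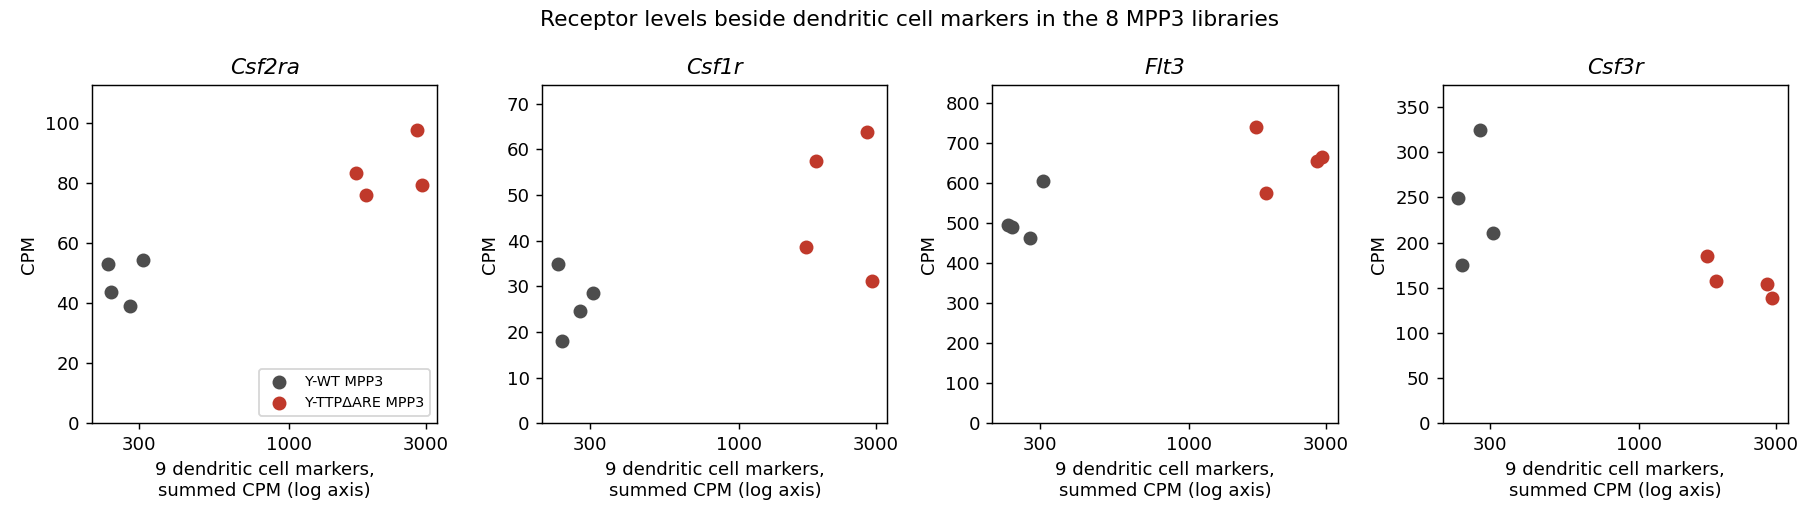
Level of Csf2ra, Csf1r, Flt3 and Csf3r in CPM against the summed CPM of 9 dendritic cell markers (log axis) in the 8 MPP3 libraries. The TTPΔARE libraries, at 1714 to 2903 CPM of the markers, lie apart from the WT libraries at 233 to 308.

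An interaction term tested whether the genotype difference itself varied with age or with cell type. For age 0 of the 8 were called, against 0.0213% of all genes, with 4 at an unadjusted p under 0.05, as were 15.0% of all genes, and 0 by DESeq2, which called 0.569%. The nearest were Csf2rb2, whose genotype difference was 0.81 higher in middle-aged than in young HSCs (SE 0.276, edgeR adjusted p = 0.270), Csf2ra, which went the other way at -0.26 (adjusted p = 0.279), and Csf2rb, at 0.38 higher (adjusted p = 0.293). For cell type 0 of the 8 were called, against 0.429% of all genes, with 3 at an unadjusted p under 0.05, as were 10.7% of all genes, while DESeq2 called Csf2ra and Csf2rb and 1.61% of all genes. There the genotype difference in MPP3s exceeded that in young HSCs by 0.85 for Csf2rb (SE 0.206, 95% interval 0.41 to 1.28, edgeR adjusted p = 0.0974) and by 0.58 for Csf2ra (SE 0.171, adjusted p = 0.192). For Csf2rb2 the excess was larger and less certain, at 1.03 (SE 0.368, 95% interval 0.25 to 1.81, edgeR adjusted p = 0.295). Both tests share libraries with the comparisons above and with each other.

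The ligands of these receptors were mostly near the limit of detection in the sorted cells. Of 10 ligand genes, Flt3l and Csf1 were the ones over the expression limit, at 19.99 ± 2.55 and 21.4 ± 3.01 CPM in Y-WT HSCs (SD, n = 4). Both were lower in MPP3s, with log2 differences of -0.82 for Csf1 and -0.76 for Flt3l in WT and of -0.74 and -1.24 in TTPΔARE, and Csf1 was higher with age, by 0.42 in WT and 0.64 in TTPΔARE. Epo, Csf2, Csf3, Il3, Il5, Il34 and Thpo had no more than 54 counts in any group. No ligand was called between genotypes.

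Of 11 other receptors of the same families, 2 were called higher and 5 lower in WT MPP3s than in HSCs. For all genes the shares were 14.5% and 7.69%. The median log2 difference of the 11 was 0.01, with -0.16 for all genes. On the log2 scale the angiopoietin receptor Tek stood at -1.62, Il6st, the signal chain of the IL-6 family, at -1.92 and Lifr at -2.34, while the IL-5 alpha chain Il5ra, which pairs with Csf2rb, rose by 2.31. In TTPΔARE 1 was called higher and 3 lower, against 9.07% and 7.22% of all genes. Between genotypes in MPP3s Tek fell by 1.26 on the log2 scale and the interferon-gamma receptor Ifngr1 rose by 0.79. That was 1 lower and 1 higher of the 11, against 1.71% of all genes called in either direction. In HSCs of either age none of the 11 was called.

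Among 23 genes of receptor-proximal signalling, 10 were higher and 2 lower in WT MPP3s than in HSCs, against the 14.5% and 7.69% of all genes, and 4 higher and 2 lower in TTPΔARE, against 9.07% and 7.22%. Those higher in WT included the PI3-kinase gamma subunit Pik3cg, 0.64 higher on the log2 scale. In middle-aged TTPΔARE HSCs Jak3 fell by 0.44 and the PI3-kinase subunit Pik3r1 was 0.38 higher than in WT. These were 1 lower and 1 higher of the 23, against 1.41% of all genes called in either direction. In TTPΔARE MPP3s 1 of the 23 was called higher, against 1.58% of all genes. Of 17 negative regulators 2 were higher and 4 lower in WT MPP3s, against the same 14.5% and 7.69% of all genes. Those lower included the STAT5-induced Socs2 at -2.99 and Cish at -1.74. In middle-aged HSCs Socs3, an inhibitor that binds the G-CSF receptor, fell by 1.83 in TTPΔARE (SE 0.330, edgeR adjusted p = 0.0222). It was the 1 of the 17 called there, against 0.710% of all genes called lower. In TTPΔARE MPP3s 1 of the 17 was called higher, against 1.58% of all genes.

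Of 14 STAT5 and growth factor target genes, 4 were higher and 4 lower between the cell types in each genotype. The shares of all genes were 14.5% and 7.69% in WT and 9.07% and 7.22% in TTPΔARE. In middle-aged TTPΔARE HSCs the survival kinases Pim2 (-1.05) and Pim1 (-0.59) were lower. They were 2 of the 14, against 0.710% of all genes called lower. In TTPΔARE MPP3s 1 of the 14 was called higher, against 1.58% of all genes. Of 19 transcription factors known to act on member genes, 7 rose and 6 fell in WT MPP3s, against 14.5% and 7.69% of all genes. Among them Cebpa, a regulator of Csf3r, rose by 3.48 and Spi1 (PU.1), a regulator of several myeloid receptors, by 0.79. Gata2 fell by 0.87 and the GATA1 partner Zfpm1 fell by 1.11. Between genotypes Gfi1 was 0.61 and Hoxa9 0.35 higher in middle-aged TTPΔARE HSCs, and Irf8, needed for monocytes and dendritic cells, was 3.25 higher in TTPΔARE MPP3s. These were 2 of the 19 in middle-aged HSCs, against 1.41% of all genes called in either direction. In MPP3s it was 1 of the 19, against 1.58% called higher.

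TTP binds AU-rich elements in 3′ UTRs, and the members were poor in them. ATTTA occurred 1 time in the 430 bases of the Flt3 3′ UTR, 3 times in the 1669 bases of Csf1r and 0 times in the other 6 members, and TATTTAT occurred in none of the 8. Of 20774 protein-coding genes, 65.6% held ATTTA and 27.7% TATTTAT, in 3′ UTRs with a median of 967 bases, longer than those of 5 of the 8 members. The 774 bases of Zfp36 held each motif 3 times.

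The genes whose levels were most like those of a member over the 24 libraries were named as a description, by Pearson's r over 13591 genes, since libraries of one group share cell type and set. For Flt3 they were H2-Ob (0.984), Tm6sf1 (0.982) and Prss57 (0.981), for Csf1r the basophil protease Mcpt8 (0.946), and for Epor Fscn1 (0.951), Arhgef15 (0.944) and the endothelial gene Cldn5 (0.942). After group means were subtracted, Epor was most like Slc40a1 (0.804), and Csf2ra was most like Flt3l (0.861). Over the 24 libraries without this subtraction, Csf2rb was most like Nfam1 (0.935), Csf3r like Slco3a1 (0.899) and Il3ra like Ffar2 (0.896). There Csf2rb2, with the weakest likeness, was most like Hipk2 (0.819).

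The order of the 6 groups by mean level differed from member to member. Flt3 ran M-WT, M-TTPΔARE, Y-WT and Y-TTPΔARE HSCs, then Y-WT and Y-TTPΔARE MPP3s, with each pair of genotypes overlapping and the 3 pairs apart from each other. Csf3r ran from Y-TTPΔARE HSCs, apart from the next group, through M-TTPΔARE and Y-WT HSCs, which overlapped, to Y-TTPΔARE MPP3s, M-WT HSCs and Y-WT MPP3s, which overlapped in turn. Csf2ra showed 1 gap, below Y-TTPΔARE MPP3s, and Epor, Il3ra and Csf1r 1 gap each, between HSCs and MPP3s. Csf2rb had a gap on either side of Y-WT HSCs, and for Csf2rb2 each group overlapped the next.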

How the data were processed

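Whole-transcriptome mRNA-seq of sorted cells was used for 24 libraries. After trimming (Trim Galore!, Cutadapt) and alignment to mm10 (STAR, GENCODE M22), the authors assigned reads to genes by featureCounts and deposited raw counts for 55376 symbols without normalization. Strand and multimapping settings are not given in the sources used here. Groups were taken from the titles. The quasi-likelihood test of edgeR 4.0.16 (R 4.3.3, limma 3.58.1) was applied after filterByExpr (count 10, total count 15) and TMM scaling. The genotype tests were checked on simulated counts, with the same spread set for every gene. Of genes changed 1.5-fold, 14% were called in young HSCs, 12% in middle-aged HSCs and 6% in MPP3s. Of genes changed 2-fold, 78%, 82% and 86% were called, so a member that differed by less could be missed. Each comparison was fitted on its own libraries, interactions on both pairs of groups. All 8 MPP3 libraries were used, although the paper shows 3 of the 4 Y-TTPΔARE MPP3 libraries. Totals of 24261371 to 39934554 counts gave each member 318 counts or more in every group.

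The alternatives were DESeq2 1.42.0, the likelihood ratio test, RLE size factors, no filter, the replicate number as a block, all libraries in the fit, the level of olfactory and vomeronasal receptor genes as a covariate, Csf2rb and Csf2rb2 summed, and each library left out. Leaving out Y-WT HSC replicates 1 and 4 together was chosen after the data were seen. In the TTPΔARE cell type comparison, same-numbered libraries deviated together (r = 0.145 to 0.229 in every pair), which comes from the values and not from the labels, and the block changed no call there.

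Members were named in full. Other genes come from lists of ligands, receptors, signalling genes, regulators, targets, transcription factors, gate antigens and cell type markers, and from the 3 genes most like a member. Some genes of these lists are counted but not reported by name here. The members and lists were chosen with earlier results of these data known. Replicate pairs differed by far more than sampling noise (chi-square per degree of freedom 18.2 to 247). Gene positions and 3′ UTRs are those of GENCODE M21 on GRCm38, promoters those of RefSeq, with 6 of the 8 members matched.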

Additional observations from a re-analysis of the deposited data

Results flagged for a closer look

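The level of Il3ra in M-WT HSC replicate 1 was 6.08 CPM, the lowest of the 5 M-WT libraries, and lay apart from the others, the next of which was 6.72 CPM. The gap was 0.742 of the whole range of the group. It was the one such value in the 40 sets of 4 or 5 libraries examined for the 8 genes, and chance gives one in about 1 of 20 such sets.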

How the results depend on the processing

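Of 1225 recomputed log2 differences of the 8 genes, 1125 kept their direction and their side of the threshold, 32 became called, 28 lost their call and 40 changed sign. The number of members called stayed within 1.5 times in 132 of 152 recomputations. In TTPΔARE it was 7 between the cell types under each alternative, in WT 5 to 7, and for the age interaction 0 under each alternative. In young HSCs DESeq2 called 3, and the likelihood ratio test and the covariate 1 each. In middle-aged HSCs the covariate and the replicate block called 0, and leaving out a library gave 0 to 1. In MPP3s DESeq2 called 4, the fit of all libraries 3 and no filter 2, and leaving out a library gave 0 to 1. With age, leaving out a library gave 3 to 5 in WT and 1 to 4 in TTPΔARE, where the fit of all libraries called 1. For the cell type interaction DESeq2 and the fit of all libraries called 2 each. In middle-aged HSCs the adjusted p of Csf3r was 0.00838 by edgeR, and it was 0.0774 with the covariate and 0.0633 with the block (4.76e-11 to 0.0774 over all alternatives). Why these calls moved was not tested.

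The numbers of the replicates pair no samples by the labels. Same-numbered libraries correlated at -0.145 to 0.211 in comparisons other than the TTPΔARE cell type one. With the replicate block Csf2rb2 turned to -0.0465 in middle-aged HSCs and Csf2ra to -0.00137 between WT cell types.

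None of the values that changed sign was called under the alternative. In middle-aged HSCs Csf2ra was 0.00698 with all libraries in the fit, and Csf1r -0.0225 with the covariate. Between WT cell types Csf2ra was -0.0391 with DESeq2, -0.0392 with RLE factors and -0.026 without a filter, between TTPΔARE cell types Csf2rb2 was 0.00931 with all libraries in the fit, and with WT age Il3ra was 0.0178 without a filter. In the age interaction Flt3 was -0.0307 and Il3ra -0.0354 with the covariate. Without both Y-WT HSC libraries high in endothelial markers, Epor was 0.45 between genotypes in young HSCs, 0.0503 with WT age and -0.24 in the cell type interaction, Csf3r was 0.0387 in the latter and Il3ra -0.0256 in the age interaction.

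Leaving out 1 library gave these ranges where the sign changed. Between genotypes in young HSCs Epor ran from -0.26 to 0.089. In middle-aged HSCs Csf1r ran from -0.0213 to 0.0843, Csf2rb2 ran from -0.057 to 0.14 and Il3ra ran from -0.30 to 0.00532. In MPP3s Epor ran from -0.0867 to 0.48. Between WT cell types Csf2ra ran from -0.0712 to 0.14. Between TTPΔARE cell types Csf2rb2 ran from -0.32 to 0.15. With age in TTPΔARE Il3ra ran from -0.0723 to 0.24 and Csf1r ran from -0.10 to 0.0228. In the age interaction Flt3 ran from -0.14 to 0.26 and Il3ra ran from -0.0767 to 0.19. In the cell type interaction Flt3 ran from -0.0285 to 0.25 and Csf3r ran from -0.28 to 0.0352. The depth limits Epor most, with 318 counts summed over the 4 Y-TTPΔARE MPP3 libraries.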
